A study of Mus musculus with 9 samples.

Results

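The microRNA (miRNA) signal of normal mouse primary visual cortex was described from the 3 control arrays of a series of 9. The control samples came from C57BL6 mice at postnatal day 28 that had been kept under a normal cycle of light and dark. The other 6 arrays, from dark-reared mice and from mice with 1 eye sutured, were not used here. Each array had received 100 ng of total RNA labelled with Cy3, a fluorescent dye, and carried probes for 611 mouse miRNA names. All 611 were taken as members, detected or not. The labels name no transgene and no sorted cell type, so each sample held every cell of the excised cortex. Nothing in them says that the 3 samples came from separate animals or pools, so the spread between arrays may be technical. In such tissue, fewer cells of a type and less RNA per cell cannot be told apart.

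A miRNA is a short RNA cut from a hairpin precursor. It guides an Argonaute protein to messenger RNAs, mainly by pairing of its seed, the bases 2 to 8 from its 5′ end. Names with the same seed are grouped as a family because they can pair with the same sites. The brain is known for a set of neuronal miRNAs, among them miR-124, miR-128 and miR-9, and for high let-7 after birth.

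Signal was concentrated in few names, and the sequences below belong to names of high share and their families. They are mature sequences from RefSeq on mouse build GRCm38.p6, written 5′ to 3′, with the seed in capitals. The first set is shown because these names, among the 20 highest, led their seeds outside the let-7 and miR-29 families and are described below. The same is true of miR-129-3p and miR-22, whose sequences are left out.
miR-128: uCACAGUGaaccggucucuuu
miR-125b-5p: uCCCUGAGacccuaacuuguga
miR-9: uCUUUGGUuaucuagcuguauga
miR-9*: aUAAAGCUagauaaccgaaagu
miR-26a: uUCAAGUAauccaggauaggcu
miR-132: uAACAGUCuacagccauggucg
The 3 members of the miR-29 family are shown because together they formed the family of the third largest share among matched names.
miR-29a: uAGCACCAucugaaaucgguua
miR-29b: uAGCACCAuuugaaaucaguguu
miR-29c: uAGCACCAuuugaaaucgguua
The 9 names with the let-7 seed are shown because they formed the largest family, and because their bodies differ by few bases.
let-7c: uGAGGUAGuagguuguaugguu
let-7a: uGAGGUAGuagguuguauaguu
let-7f: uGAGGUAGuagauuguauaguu
let-7b: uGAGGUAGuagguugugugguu
let-7g: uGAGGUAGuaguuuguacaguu
let-7d: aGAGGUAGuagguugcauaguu
let-7i: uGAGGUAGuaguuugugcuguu
let-7e: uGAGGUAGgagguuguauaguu
miR-98: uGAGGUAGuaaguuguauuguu

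Of the 611 mouse names, 495 were matched to a RefSeq mature sequence, and these held 80.5% of the signal. Among the 30 highest names, miR-720, miR-124 and miR-709 were not matched. The sequence of miR-128 lies at chr1:128202404-128202424 (plus strand), within the protein-coding gene R3hdm1, and at chr9:112118644-112118664 (minus strand), within Arpp21. That of miR-125b-5p lies at chr9:41581940-41581961 (plus strand), within the long non-coding RNA gene Mir100hg, and at chr16:77646279-77646300 (plus strand), outside any annotated gene. Those of let-7a, let-7f and let-7d share a stretch of chromosome 13 on the minus strand, at chr13:48538239-48538260, chr13:48537889-48537910 and chr13:48536078-48536099. A further let-7f sequence lies at chrX:151912353-151912374 (plus strand), within Huwe1, and that of miR-98 follows at chrX:151913229-151913250.

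The arrays differed in brightness but ranked the names alike. The processed intensity of a name, which is the fluorescence left after the scanner program subtracted background, was averaged over its spots and then its probes. Its sum over the 611 names was 355622 on control 1, 179388 on control 2 and 280688 on control 3. Each value is therefore given as a share, the percent of that sum on the same array. Where a level is given, it is log2 of the intensity over its array's 75th percentile, taken over the 486 probes that stood well above background on each control array. Across the 296 names detected on all 3 arrays, Pearson's r of the levels was 0.984 for controls 1 and 2, 0.983 for controls 1 and 3, and 0.997 for controls 2 and 3. These correlations run across names within arrays of 1 slide, so they describe the arrays and carry no test. Control 1 stood apart for a set of mostly low names, only some of them with repeat-rich probes. The share of the Sfmbt2 list, which rests on such names, is given with and without control 1. An intensity also depends on how well a probe binds its target, so the order of names is an order of signal and not of molecule numbers.

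About 50% of the names were detected in normal cortex, on one side of that value or the other by the rule used. Of 611 names, 296 (48.4%) were called detected on all 3 arrays by the scanner program, which calls each name on each array. The calls per array were 314, 310 and 333 (51.4%, 50.7% and 54.5%). A further 16 names were called on 2 arrays and 37 on 1, while 262 were called on none. Called on at least 2 arrays were 312 (51.1%), on at least 1 array 349 (57.1%), and on both controls 2 and 3 308 (50.4%). The names called on 1 array alone numbered 14 on control 1, 2 on control 2 and 21 on control 3. The 296 names held 99.9% of the summed signal, with a median intensity of 117 units, against -1.78 units for names called on none. The 2 classes touched at the low end: the lowest name called on all 3 arrays averaged 2.93 units and the highest called on none 9.33 units. A name that was not called is one whose signal was not told from background at this brightness, not one shown to be absent.

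The summed signal was carried by a small number of names. On each of the 3 arrays, 11 names sufficed for 50% of it. Reaching 90% took 69, 66 and 68 names, and 99% took 200, 189 and 195. The 10 names of highest mean share held 48.3%, 49.9% and 48.0% of the signal on controls 1, 2 and 3 (48.7% ± 1.02, SD, n = 3). The 30 highest held 74.5%, 76.2% and 74.8%, and the 100 highest 94.4%, 95.02% and 94.7%. The sets themselves were shared: 9 names were in the 10 highest of every array, 30 in the 30 highest and 97 in the 100 highest.

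**Figure D1:**
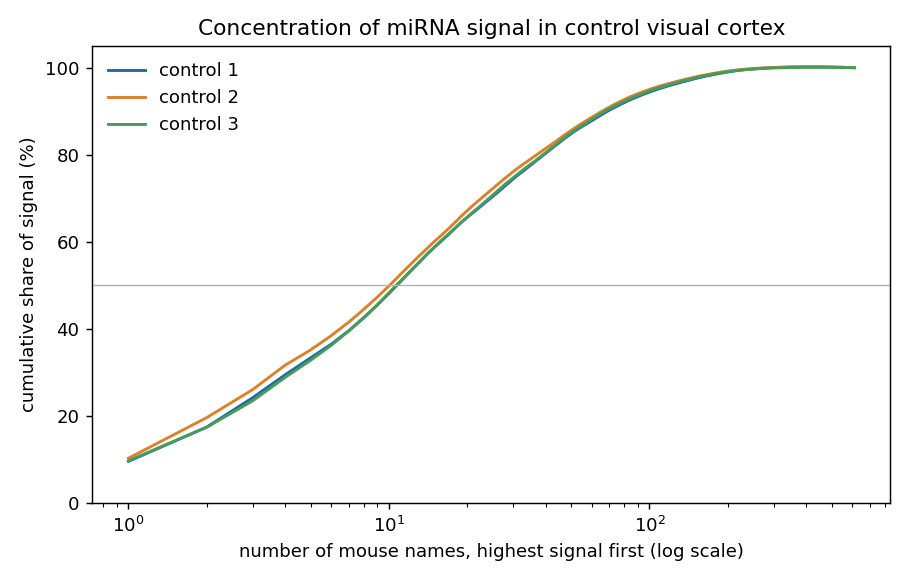
Cumulative share of mouse miRNA signal (%, y axis) against the number of names, counted from the highest (log scale, x axis), 1 line per control array. All 3 lines cross the grey 50% line at 11 names, and control 2 lies slightly above the others at the left.

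The highest name was miR-128, a brain-enriched miRNA of neurons. It read 34204, 16761 and 27405 intensity units on controls 1, 2 and 3, which were 9.62%, 9.34% and 9.76% of the signal. Its mean share was 9.57% ± 0.213 (SD, n = 3) and its level 5.39 ± 0.014 on the log2 scale, one of the smallest spreads of any name. The next was miR-720, a name later assigned to a fragment of a transfer RNA rather than to a miRNA hairpin. It read 28069, 18546 and 21626 units, which were 7.89%, 10.3% and 7.70% of the signal (8.65% ± 1.47). It was highest on control 2, where it passed miR-128, so the order of these 2 names was held on 2 of 3 arrays. With miR-720 left out of the sum, miR-128 held 10.5% ± 0.0856 of the remaining signal.

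The third name was miR-124, the classic neuronal miRNA, which represses non-neuronal messenger RNAs. Its intensity was 23962, 11526 and 17027 units, or 6.74%, 6.42% and 6.07% of the signal (6.41% ± 0.336, n = 3). The fourth, miR-125b-5p, is known to act on dendritic spines and on an NMDA receptor subunit. It took 5.27%, 5.62% and 5.39% (5.43% ± 0.174). Both kept their rank on every array, and the steps from miR-720 to miR-124, on to miR-125b-5p, and on to miR-29a each held on all 3.

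Ranks 5 to 10 lay closer together. They were miR-29a at 3.74% ± 0.229, let-7c at 3.28% ± 0.148, let-7a at 3.13% ± 0.120, miR-9* at 2.92% ± 0.109, miR-29b at 2.87% ± 0.233 and miR-9 at 2.72% ± 0.153. Here miR-29a, let-7c, let-7a and miR-9* followed each other in the same order on every array. In contrast, miR-9*, miR-29b, miR-9 and let-7f (2.56% ± 0.0906) changed places between arrays. The steps from miR-9* to miR-29b and from miR-29b to miR-9, 0.0510 and 0.154 percentage points, lay within the SD of miR-29b. That from miR-9 to let-7f, also 0.154 points, passed both SDs but was turned round on control 3.

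The next 20 names ranged from let-7f down to miR-137, which held 0.734% ± 0.0248. Neuronal names among them were miR-129-3p at 1.46% ± 0.0245, miR-132 at 1.40% ± 0.0808, miR-218 at 0.747% ± 0.0250 and miR-137, whose human locus is linked to schizophrenia. Transcription of miR-132 is induced by neuronal activity through the factor CREB, and its shares were 1.44%, 1.46% and 1.31%, lowest on control 3. Names known from many tissues were miR-26a at 2.22% ± 0.102, miR-22 at 1.33% ± 0.0293, miR-30c at 1.00% ± 0.00531 and miR-24 at 0.887% ± 0.0225. The shares of miR-30c were 1.01%, 0.995% and 1.00%, the smallest SD of a share among the 30. Those of miR-709, by contrast, were 0.862%, 1.23% and 0.940%, highest on control 2 as for miR-720.

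Imprinted names of chromosome 12 stood near the end of the 30, miR-434-3p at 0.874% ± 0.0721 and miR-127 at 0.803% ± 0.0312. By position, without regard to the strand of the gene, both sequences lie within the span of Rtl1. They are at chr12:109594565-109594586 and chr12:109592888-109592909 (plus strand). Position alone does not make Rtl1 their host gene, because the strand of Rtl1 was not compared with theirs. Of the 29 neighbouring pairs in the 30 highest, the order held on all 3 arrays in 15. The difference was larger than the SDs of both names added together in 10. The pairs are described without a test, and with 3 arrays an exact test could not reach a p under 0.05.

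**Figure D2:**
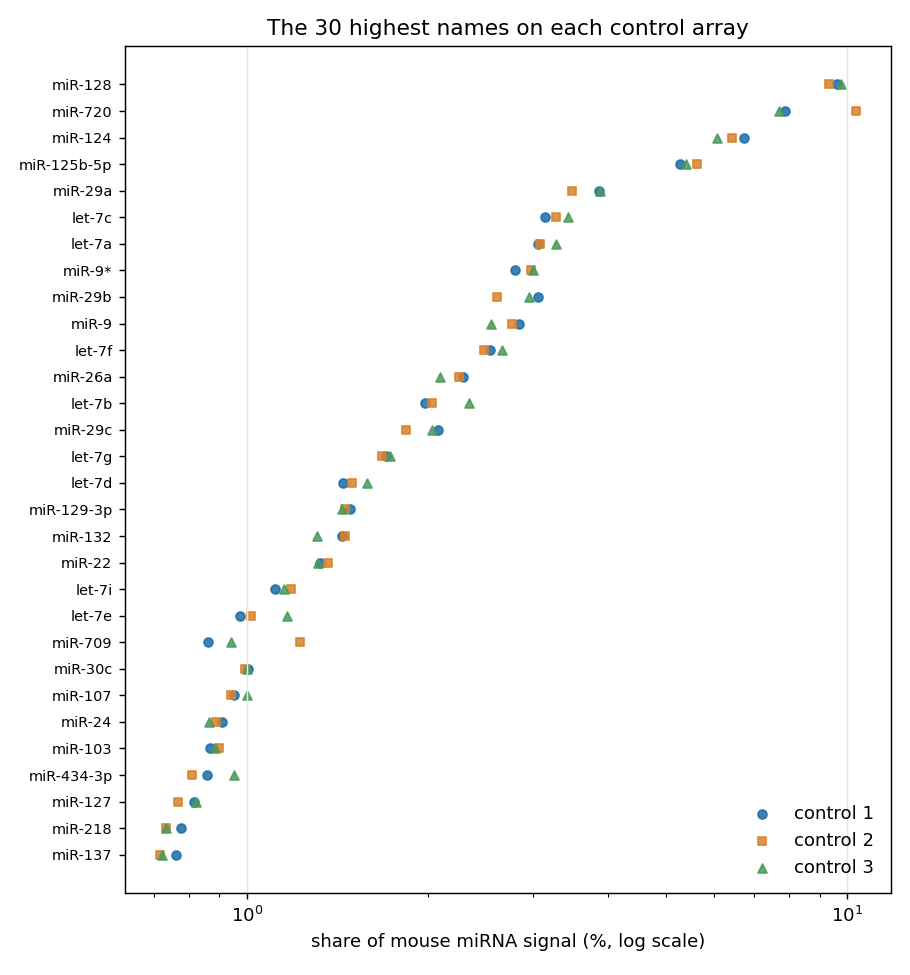
Share of mouse miRNA signal (%, log scale, x axis) of the 30 names of highest mean share (y axis), with 1 symbol for each control array. The symbols of most names lie close together, while miR-720 and miR-709 are visibly higher on control 2 (10.3% and 1.23%) than on the others.

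Grouped by seed, the let-7 family was the largest. The 495 matched names fell into 406 seeds, of which 52 were shared by 2 or more names. The 9 names with the seed GAGGUAG, let-7a to let-7i and miR-98, were all detected and held 16.1%, 16.3% and 17.5% of the signal (16.6% ± 0.739, n = 3). That family is known for keeping cells differentiated, with Lin28 and Hmga2 among its targets. It was highest on control 3.

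No single let-7 name dominated. The leader, let-7c, held 19.7% of the family's signal. Each array gave the order let-7c, let-7a, let-7f, let-7b, let-7g and let-7d, from 3.28% down to 1.51% ± 0.0723. On controls 1 and 2 let-7i (1.15% ± 0.0344) stood above let-7e (1.05% ± 0.0998), while on control 3 they changed places at 1.15% and 1.16%. The lowest was miR-98 at 0.105% ± 0.00520. Counted from 1 at the 5′ end and relative to let-7a, let-7c differs by A19G alone, let-7f by G12A alone and let-7e by U9G alone. The substitutions are A17G and A19G in let-7b, U1A and U16C in let-7d, G12U and U18C in let-7g, and G11A and A19U in miR-98. In let-7i they are G12U, A17G, U18C and A19U. Probes for names that differ by 1 base can bind each other's targets, and that was not tested here, so the split within the family is less certain than its sum.

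**Figure D3:**
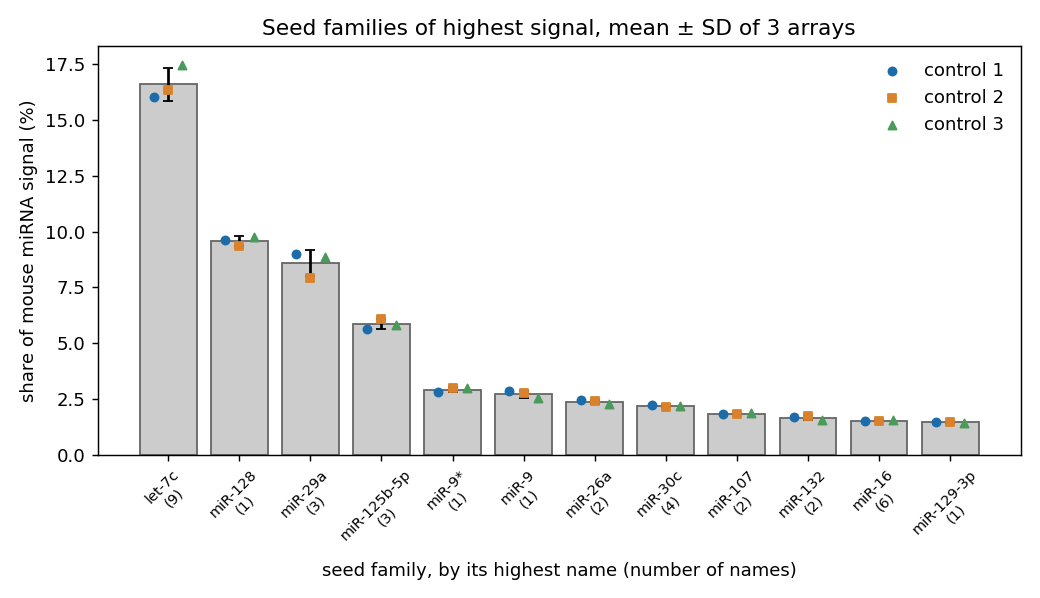
Share of mouse miRNA signal (%, y axis) of the 12 seed families of highest mean share, each named by its highest name with its number of names in brackets. Bars give the mean of the 3 control arrays, error bars the SD and symbols the arrays; the let-7 family, led by let-7c, stands at 16.6% and the miR-29 family at 8.60%.

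The second seed by share, CACAGUG, was that of miR-128 alone; miR-720 and miR-124 were not placed in a family. The miR-29 family, whose members rise in the maturing brain and target collagens and pro-death BH3-only genes, was the third with all 3 names detected. It held 8.999%, 7.92% and 8.86% of the signal (8.60% ± 0.585, n = 3), lowest on control 2. The same order, miR-29a, miR-29b and miR-29c (1.99% ± 0.128), was found on each array. The seed CCCUGAG gave 5.86% ± 0.223, of which miR-125b-5p was 92.7%; its relative miR-125a-5p held 0.429% ± 0.0488 and miR-351 was not detected on any array.

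Smaller families differed in how far 1 name led. For the seed UCAAGUA, miR-26a made 93.2% of 2.38% ± 0.0957 and miR-26b the rest. For AACAGUC, miR-132 made 84.2% of 1.67% ± 0.0976, and miR-212, which shares its transcript, held 0.263% ± 0.0173. For GCAGCAU, by contrast, miR-107 (0.964% ± 0.0302) and miR-103 (0.884% ± 0.0151) were nearly equal. Their sequences lie within the pantothenate kinase genes Pank1, Pank2 and Pank3. Likewise the seed GUAAACA was spread over miR-30c, miR-30a at 0.675% ± 0.0187, miR-30e at 0.444% ± 0.0240 and miR-384-5p at 0.0570% ± 0.00444. Without a matched sequence, miR-30b at 0.551% ± 0.0273 and miR-30d at 0.335% ± 0.0220 are not counted in the 2.18% ± 0.0523 of that seed. By name, the 5 names miR-30a to miR-30e together held 3.00% ± 0.0572, above miR-9*. All 6 names with the seed AGCAGCA were detected, and miR-16 (0.476% ± 0.0281), miR-15a (0.406% ± 0.0219) and miR-195 (0.250% ± 0.00380) led them.

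The 10 largest families of matched names held 54.4% of the signal. Unmatched names, among them miR-720 at 8.65% and miR-124 at 6.41%, are in no family. A name whose only relatives were not matched is counted as alone with its seed. Names that share a seed with another name were detected more often in this count: 89 of 141 (63.1%), against 158 of 354 (44.6%) for names alone with their seed. Of all 495 matched names 247 were detected, and of all 611 names, matched or not, 48.4%. Of the 52 families with 2 or more names, 22 were detected in full and 13 not at all. These counts are a description, since names of a family share sequence and often a hairpin cluster.

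Nearly all names that mark neurons were detected, and they included the highest of all. Of 24 neuronal names on the array, 22 (91.7%) were detected on all 3 arrays, against 48.4% of all names, and together they held 25.4%, 24.6% and 24.3% of the signal (24.8% ± 0.6001, n = 3). Most of that came from miR-128, miR-124 and miR-9, and the rest of the list held 6.08%. In the middle of the list stood miR-153 at 0.524% ± 0.0355, miR-212, and miR-138 at 0.209% ± 0.0157, a miRNA of dendritic spines. Lower still, miR-134, known for limiting spine size, held 0.00368% ± 0.000302, and miR-330 had a level at the floor of the scale, log2 -6.90, on every array. Though counted as detected, miR-330 read 1.88 and 4.26 units on controls 2 and 3. These lay under the 95th percentile of single negative control spots there, 2.37 and 4.28 units. On control 1 it read 2.64 units, above the 0.444 units of that array. The 2 names not detected were miR-708 and miR-384-3p. Starred names were kept out of the list by rule. Its share thus leaves out miR-9* at 2.92%. The other arm of miR-330, miR-330*, was detected on all 3 arrays at 0.0390% ± 0.00271.

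Names enriched in astrocytes and other glia, with 8 of 8 detected against 48.4% of all names, held 12.4% ± 0.627. The miR-29 names and miR-26a made up most of it, and these are known in neurons too, so the list does not measure glia. Its other members were miR-23b at 0.622% ± 0.0110, miR-23a at 0.494% ± 0.0394, and miR-21 at 0.274% ± 0.0232. The oligodendrocyte list, with 3 of 3 detected against 48.4% of all names, held 0.750%, 0.685% and 0.878% (0.771% ± 0.0980). Both miR-338-3p (0.483% ± 0.0527) and miR-219 (0.269% ± 0.0498), which promote the maturation of myelinating cells, were highest on control 3. The neuronal list and the list of astrocytes and other glia together held 37.1% of the signal.

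Blood and vessel names were present at low shares. The endothelial miR-126-3p, whose sequence lies within Egfl7 at chr2:26591402-26591423 (plus strand), held 0.464% ± 0.0230. It made 90.4% of the vascular list, which held 0.513% ± 0.0277. In that list 4 of 4 names were detected, against 48.4% of all names. The smooth muscle names miR-143 and miR-145 held 0.0261% ± 0.00498 and 0.00827% ± 0.000173.

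Relative to its mean, the red blood cell list varied most of the marker lists that were detected in full. It held 0.540%, 0.364% and 0.705% of the signal on controls 1, 2 and 3 (0.536% ± 0.170), and miR-451, an erythroid miRNA, made 93.3% of it. The shares of miR-451 were 0.502%, 0.339% and 0.659%, a ratio of 1.94 between the highest and the lowest array. Those of miR-144, made from the same transcript, were 0.0268%, 0.0143% and 0.0318%, a ratio of 2.22. Both were lowest on control 2 and highest on control 3. The third name, miR-486, was also highest on control 3 (0.0136%) but lowest on control 1 (0.0104%). How much blood each piece of cortex held was not tested.

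White-cell names were lower still. Of 6 microglial and leukocyte names, 4 (66.7%, against 48.4% of all names) were detected, and the list held 0.125% ± 0.00687. The lymphocyte name miR-150 led at 0.0563% ± 0.00234, followed by miR-142-3p at 0.0321% ± 0.00322 and miR-146a at 0.0176% ± 0.000525. The inflammatory miR-155 was not detected on any array.

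Names of tissues next to or far from cortex were low in signal or not detected. The choroid plexus and epithelium list had 5 of 9 names detected, 55.6% and so near the 48.4% of all names, and 0.212% ± 0.00864 of the signal. Of that, 86.8% was miR-204 (0.184% ± 0.00979), a choroid plexus miRNA that other brain cells also express, whereas miR-200b and miR-429 held 0.00729% ± 0.000616 and 0.00727% ± 0.000850. The muscle list had 3 of 7 detected (42.9%, also near that of all names) and 0.0357% ± 0.00331, with miR-1, miR-133b and miR-133a at 0.0147%, 0.0113% and 0.00571%. None of 5 liver and pancreas names, among them miR-122 and miR-375, was detected on any array, nor any of 3 names of the sensory epithelium and retina cluster (miR-183, miR-96, miR-182). Of 16 pluripotent cell names only miR-290-5p was detected on all 3 arrays, at 0.00935% ± 0.00108. The list holds no starred names, and miR-295* of the same cluster was detected too, at 0.0157% ± 0.00127. Of 19 names of a testis cluster on chromosome X none was detected on all 3.

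**Figure D4:**
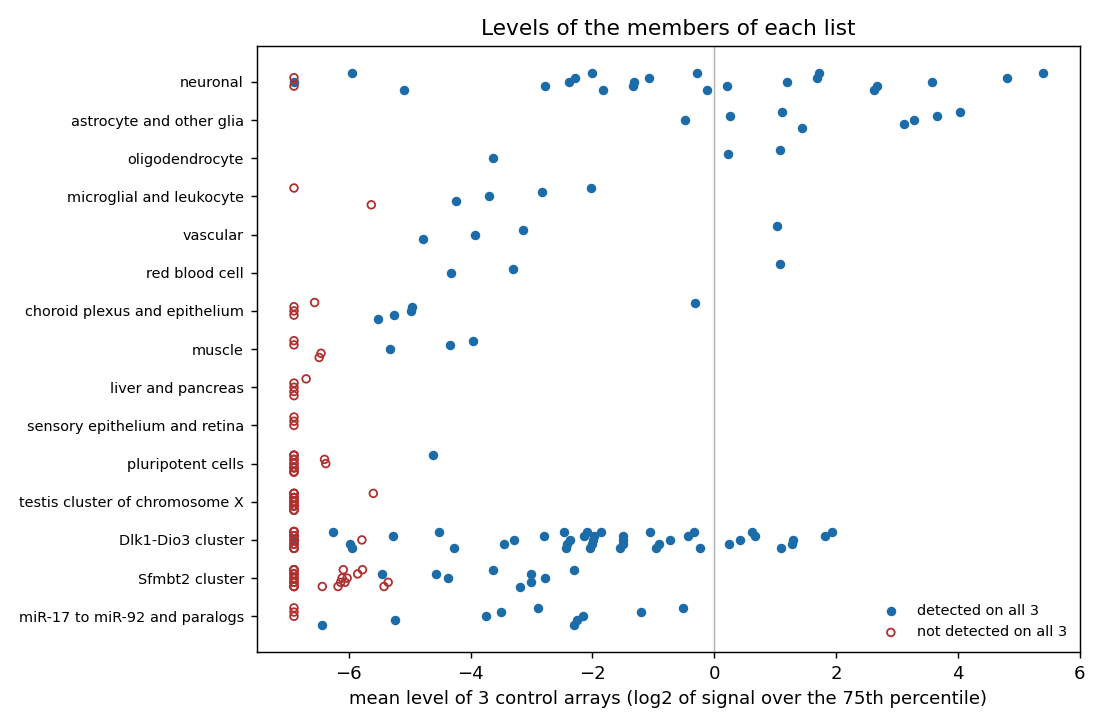
Mean level over the 3 control arrays (log2 of intensity over the 75th percentile of the array, x axis) of every name in each list (y axis), with filled points for names detected on all 3 arrays and open points for the others. Neuronal and glial names reach the right of the plot, up to 5.39 for miR-128, while liver, retina, pluripotent and testis names mostly lie at the floor of -6.90.

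Imprinted names of the Dlk1-Dio3 region on chromosome 12, a brain-expressed cluster made from the maternal chromosome, formed a broad middle layer. Of 57 names, 41 (71.9%) were detected, against 48.4% of all names, and they held 6.90%, 6.33% and 6.66% of the signal (6.63% ± 0.288, n = 3). No single name led: miR-434-3p made 13.2% of it and miR-127 followed. Next came miR-376a at 0.559% ± 0.0492, miR-136 at 0.553% ± 0.0283 and miR-300 at 0.486% ± 0.0184. Further names over the 75th percentile of their arrays were miR-487b at 0.361% ± 0.0120, miR-410 at 0.305% ± 0.0123 and miR-154 at 0.269% ± 0.00541. Spread was wide in miR-494, with 0.575% on control 1 but 0.274% and 0.276% on the others, and in the low miR-770-3p, with 0.0202%, 0.0112% and 0.00713%. Both were highest on control 1.

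The Sfmbt2 list had its highest signal on control 1. It is called after a rodent cluster of repeated miRNA genes within an intron of Sfmbt2. Its members are every unstarred name that starts with miR-297, miR-466, miR-467 or miR-669. They were chosen by name and not by location, so some may lie outside that intron. Of 35 names, 9 (25.7%, against 48.4% of all names) were detected on all 3 arrays, and 8 were detected on control 1 alone. The list held 0.486% on control 1, 0.163% on control 2 and 0.177% on control 3 (0.276% ± 0.182, n = 3), or 0.170% without control 1. The highest names were miR-467f at 0.0480% ± 0.0177, miR-669c at 0.0406% ± 0.0426 and miR-669f at 0.0337% ± 0.00757. The shares of miR-669c were 0.0898%, 0.0174% and 0.0147%, so control 1 exceeded the sum of the other two.

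The miR-17 to miR-92 cluster and its paralogs, proliferation-linked miRNAs, had 10 of 13 names detected (76.9%, against 48.4% of all names) and held 0.481% ± 0.0338. Of these, miR-19b led at 0.160% ± 0.0119, followed by miR-106b at 0.0991% ± 0.00568 and miR-93 at 0.0511% ± 0.000224. The shares of miR-93 were almost the same on every array. Not detected on any array were miR-17 itself, miR-18b and miR-363. The other arm of miR-17, miR-17*, is not in the list and was detected on all 3 arrays at 0.00754%.

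The levels of most detected names agreed closely between arrays, and most of the exceptions were low names that were high on control 1. The median SD of the level over the 3 arrays was 0.099 on the log2 scale for all 296 detected names, 0.076 for the 100 highest and 0.16 for the 100 lowest. The SD passed 0.5 in 19 names, and 17 of these were highest on control 1, against 72 of all 296. The other two were miR-144, highest on control 3, and miR-702, highest on control 2. One of the 17, miR-494, was not low, at rank 50. The 19 names held 1.34% of the signal on control 1, 0.507% on control 2 and 0.521% on control 3. The widest spread was that of miR-468, with 118, 5.12 and 7.82 intensity units and an SD of 2.04. It was followed by miR-669c at 1.44, miR-574-3p at 1.33, miR-466g at 1.18 and miR-1196 at 1.13. All 5 were highest on control 1, and on controls 2 and 3 each pair of levels lay close together, for miR-574-3p at -4.35 and -4.42 beside -2.08.

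Of those 19 names, 8 had probes with a run of CA or GT repeats. On the array 13 names had such probes, and 10 of them were detected on all 3 arrays. All 10 were highest on control 1, with a median level of -2.25 there and of -3.57 and -3.65 on controls 2 and 3. The median level of all detected names was -2.38, -2.44 and -2.45, so the arrays did not differ in this way as a whole. Whether the difference lies in the tissue or in the hybridisation was not tested, and the 3 arrays, all on 1 slide, give no second array of the same RNA.

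**Figure D5:**
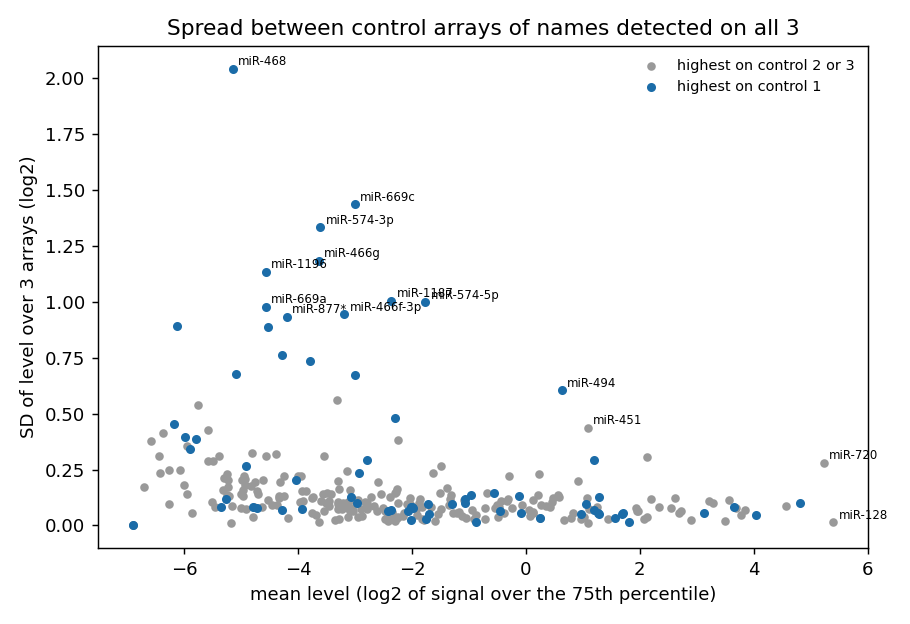
SD of the level over the 3 control arrays (log2, y axis) against the mean level (log2 of intensity over the 75th percentile, x axis) of the 296 names detected on all 3, in blue where control 1 was highest. The points above 0.6 are all blue, led by miR-468 at 2.04, while most names lie under 0.25.

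Names with the smallest spread were found along the whole scale, in part because of its floor. For miR-665 and miR-330, detected on all 3 arrays at 2.71 to 5.02 and 1.88 to 4.26 units, the SD of 0 only reflects the floor. The same holds for miR-30c-1*, at 2.49 to 6.87 units. These 3 were the lowest detected names, followed by let-7a* and miR-700. Above the floor, miR-24-2* (-5.18, -5.17 and -5.16) and miR-300 (1.08, 1.09 and 1.11) had the smallest SDs, 0.0085 and 0.013, and miR-185 in between had 0.017.

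The probes of a name often gave different intensities. Each of the 100 highest names had 2 or more probes, and the brightest read a median of 2.56 times the dimmest. The ratio passed 2 in 63 names and 5 in 12, and the brightest probe was the longer in 99 of 100. It was widest for miR-709 at 10.2, miR-139-5p at 10.004, miR-129-3p at 9.51, miR-153 at 9.41 and miR-29b at 8.40. Taken by the brightest probe alone, miR-720 ranked above miR-128, and miR-29b moved from rank 9 to rank 6.

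The 2 arms of a hairpin were compared where RefSeq pairs them. Of 139 hairpins with a name for each arm, both arms were detected in 41, 1 arm in 60 and none in 38. In most of the highest hairpins 1 arm held nearly all the signal, as for miR-29a at 3.74% beside miR-29a* at 0.00267%. The miR-9 hairpin, required for the growth of the cortex, was different: miR-9* over miR-9 was 0.984, 1.08 and 1.18 on controls 1, 2 and 3, close to equal signal and not on the same side of 1 on every array. Of 115 starred names, 40 (34.8%) were detected, against 256 of 496 (51.6%) names without a star. They held 3.85% of the signal, and 0.932% without miR-9*.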

How the data were processed

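Members and lists were chosen with earlier results of these data known. The deposited scanner files hold intensity values for 13715 spots per array. Background was removed by Agilent Feature Extraction 10.1.1.1, per the file headers, and the arrays were left unscaled. The authors' series matrix was equal to the processed intensity at 100% of spots (relative tolerance 1e-05). Only the 3 control arrays were used, and 6 columns of other samples were left out. Of 12220 mouse spots, 585, 376 and 366 were called outliers and dropped, and 0 were saturated. The median variation between spots of a probe was 5.83%, 6.51% and 5.18%, and 3 arrays limit the precision.

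The processed signal was averaged over spots, then over probes, on the linear scale. Levels are log2 of it over the 75th percentile, which was 819, 395 and 657 units, with a floor at 0.00837. Detection is the program's own call per name. Names were the 30 of highest share, the 10 largest families with their 3 highest members, the 3 highest of each list and those over the percentile, and the extremes of spread, level and probe ratio. A name outside this rule was chosen after its values were seen. Computation used Python 3.11.15, pandas 2.3.3, numpy 2.4.6, Biopython 1.88, and limma 3.58.1 in R 4.3.3 for the normexp alternative. The computation was tested on simulated data. In them all probes of a name had the same true signal, so differences between the probes of a name were not covered. No test between groups was made. No pair of arrays was the same within spot noise: the smallest mean squared difference was 11.9 times the noise.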

Additional observations from a re-analysis of the deposited data

Results flagged for a closer look

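Each array also carried probes for 39 viral miRNA names, which belong to no mouse gene and were left out of all shares. Of these 39, 6 were called detected on all 3 control arrays, against 296 of 611 (48.4%) mouse names. Their intensities are set here beside the 95th percentile of the negative control spots, which was 0.444, 2.37 and 4.28 units on controls 1, 2 and 3. The highest was mcmv-miR-M23-1-5p, named for murine cytomegalovirus, with 319, 177 and 260 units, and mcmv-miR-m88-1 read 299, 165 and 231 units. The others reached 57.3 units (mcmv-miR-m22-1), 51.9 units (mcmv-miR-M23-1-3p), 20.7 units (mcmv-miR-M87-1) and 14.1 units (mghv-miR-M1-2, named for a murine herpesvirus), each on control 1. The highest of them was equal to 0.0896% of the mouse signal on control 1. On each array the highest viral name also read above 117 units, the median of mouse names detected on all 3. Whether other RNA binds these probes was not tested. A call on a dim mouse name likewise does not by itself identify the RNA that was bound.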

How the results depend on the processing

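Of 44 alternative values of shares and levels, 35 moved by less than the SD between arrays, and of 17 alternative counts of names, 16 stayed within 1.5 times the value reported. Background correction by normexp with an offset of 50 moved most: the 10 highest names on each array held 35.8% in place of 48.8%, 36.3 names were needed for 50% in place of 11, the let-7 family held 12.5% in place of 16.6%, the neuronal list 18.9% in place of 24.8% and the Sfmbt2 list 1.78% in place of 0.276%. These means hide a split between arrays, since normexp left names called on none at a median of 645 units on control 1 but 63.8 and 67.8 on controls 2 and 3. The 10 highest names then held 24.3%, 41.1% and 42.1%, 50% took 79, 16 and 14 names, and the Sfmbt2 list held 3.26%, 1.17% and 0.899%. Leaving out miR-720, an alternative chosen after seeing the data, gave 46.7% for the 10 highest names, 18.2% for the let-7 family and 27.1% for the neuronal list. The brightest probe alone gave 50.5% for the 10 highest names and put miR-720 above miR-128. With the percentile taken over all miRNA probes the level of miR-128 was 9.39 in place of 5.39, since most probes lie near background. Leaving out each array in turn gave 48.2% to 49.1% for the 10 highest names, 11 names for 50%, 16.2% to 16.9% for the let-7 family, 24.4% to 25.0% for the neuronal list, 0.170% to 0.332% for the Sfmbt2 list, 296 to 308 detected names and 5.38 to 5.40 for miR-128. The Sfmbt2 value rests on control 1. No paired analysis was possible because no groups were compared and the results come from no test. Dim names are limited by background: 257 of 611 names had a probe well above it on all 3 arrays.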

Other observations

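The 495 names with a RefSeq sequence were described by features that the ranking did not use. The first base was U in 34 of the 50 highest of them (68%), in 45.7% of the 247 detected on all 3 arrays, in 38.5% of the 213 detected on none and in 41.4% of all. The detected names were counted with names of the same family, which share bases, so no test was made. Across the 247 detected names, Pearson's r of the level with GC content was -0.31, a description of names that share 3 arrays and, in part, probes' base composition.

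In the RefSeq table, which is not complete, 34 names had 2 or more loci. Of these, 27 (79.4%) were detected, against 247 of all 495 matched names. They held 37.2% of the signal with a median share of 0.174%. Of 461 names with 1 locus, 220 (47.7%) were detected, near the 48.4% of all names, with a median share of 0.00261%. By chromosome, chromosome 12, which carries the Dlk1-Dio3 cluster, had the most names with 1 locus, and 55 of its 83 (66.3%) were detected, with 7.80% of the signal. The percentage was close to that on chromosome 11, where 23 of 35 (65.7%) were detected. On the X chromosome 19 of 74 (25.7%) were detected, against 47.7% of all names with 1 locus, with 1.11% of the signal. The testis cluster described above, with none of 19 names detected on all 3 arrays, lies on this chromosome.

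Among the 30 highest names, 27 had a sequence. Of these, 12 had a locus within the span of a protein-coding gene on either strand, 12 had 2 or more loci and 21 began with U.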
